A study of Homo sapiens with 18 samples.

Results

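AP-1 is a transcription factor assembled from proteins of the JUN and FOS families. The 7 human genes that encode them were followed here, JUN, JUNB and JUND on the JUN side and FOS, FOSB, FOSL1 and FOSL2 on the FOS side. They were taken by gene symbol, with no measured value used, and are 7 of the 42141 genes in the deposited tables. All 7 passed the filter on low counts, as did 16911 genes in all. The cells were MCF-10A.B2, a mammary epithelial line of human origin that forms acini in Matrigel and does not derive from a tumour. The line carries a form of HER2 whose kinase can be brought together by a bivalent drug, the B/B homodimerizer. The series set JNK-knockout (JNKKO) cells beside wild type (WT) cells to ask how loss of the JNK pathway bears on growth driven by HER2. The 6 groups of 3 libraries were JNKKO acini given dimerizer and TGF-β1, JNKKO acini given dimerizer, JNKKO acini given ethanol as the control, and WT acini given the same 3 treatments. Every group, controls included, carried the HER2 transgene, was kept for 21 days on Matrigel low in growth factors, in medium that held horse serum, insulin, hydrocortisone and cholera toxin. Every group lost its EGF after 7 days, when the 14 days of treatment began. The sources used here give neither the JNK genes that were disrupted nor whether the JNKKO cells are 1 clone. The labels do not tie the libraries to cultures of their own, and p-values therefore reflect the spread among these samples alone, which may be technical.

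JUN proteins pair with each other or with a FOS protein, whereas FOS proteins need a JUN partner to bind DNA. JNK is named for the phosphorylation of the amino-terminal end of JUN, which raises its activity, and JUN protein in turn acts on the promoter of its own gene. FOS, FOSB, JUN and JUNB are immediate-early genes, switched on by growth factor signals through ERK and other kinases. JUND is made more steadily, and FOSL1 and FOSL2 are the FOS proteins that persist in epithelial cells under lasting ERK signalling. The libraries read mRNA and show neither phosphorylation nor which dimers formed.

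Because JUN and its relatives are known to act on their own promoters, promoter elements of the AP-1 and cyclic AMP response types are shown first. RefSeq (GRCh38.p14) gave a promoter, 250 bases before to 50 after the start, for 6 of the 7 members, all but FOSL1. In each line the capitals mark the motif, read 5′ to 3′ on the strand of the gene, inside a window of 30 bases. Each core site shown is the match nearest before the start, except in JUND, where it is the match furthest before the start. The JUN windows lie at chr1:58784096-58784125 and chr1:58784153-58784182 on the minus strand. The other windows lie at chr19:12791337-12791366 on the plus strand for JUNB, chr19:18281805-18281834 on the minus strand for JUND, chr14:75278752-75278781 on the plus strand for FOS, chr19:45467924-45467953 on the plus strand for FOSB, and chr2:28392780-28392809 on the plus strand for FOSL2.
JUN, variant AP-1 element 67 bases before the start: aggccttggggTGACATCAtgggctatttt
JUN, core site 123 bases before the start: gagtctccatggTGACGggcgggcccgccc
JUNB, core site 137 bases before the start: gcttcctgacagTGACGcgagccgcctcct
JUND, core site 200 bases before the start: cggccgcccccaTGACGtcaacccacaagg
FOS, core site 64 bases before the start: tggttgagcccgTGACGtttacactcattc
FOSB, core site 60 bases before the start: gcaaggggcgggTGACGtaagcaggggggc
FOSL2, core site 66 bases before the start: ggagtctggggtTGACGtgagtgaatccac
The core site TGACG, searched on both strands, was in all 6 member promoters and in 24.6% of the 35116 promoters in the table. It is part of the cyclic AMP response element and not of the classical AP-1 element. TGACG and TGACATCA were picked after these promoters were read, so their presence here is no test. The variant element TGACATCA was in JUN alone among the 6 and in 2.61% of all promoters. The full cyclic AMP response element, TGACGTCA, which contains the core site on each strand, was in JUND alone among the 6 and in 1.85% of all promoters. The classical AP-1 element (TGACTCA or TGAGTCA) was in FOSL2 alone among the 6, outside the window shown, and in 4.95% of all. The CArG box of serum response factor was in no member promoter and in 1.29% of all. These matches describe letters in a window and show no binding. Elements more than 250 bases before the start were not searched, so a motif missing here may lie further out.

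The genes lie in GENCODE 29 (hg38) at chr1:58780788-58784327 for JUN, chr19:12791496-12793315 for JUNB, chr19:18279760-18281622 for JUND, chr14:75278774-75282230 for FOS, chr19:45467995-45475179 for FOSB, chr11:65892049-65900573 for FOSL1 and chr2:28392448-28417312 for FOSL2. Both JUN windows and the FOSL2 window shown above lie inside these bounds, and the FOS window reaches into them. Distances before the start given above refer to the RefSeq start, which differs from the GENCODE 29 start of these genes. JUN, JUND, FOS and FOSL1 overlap no other annotated gene. JUNB lies within HOOK2 and FOSB within ERCC1, both on the opposite strand, and FOSL2 overlaps the antisense gene FLJ31356 and the intronic gene AC104695.3. The sources used here do not say whether counting used strand, so reads of these neighbours may be counted in JUNB, FOSB and FOSL2.

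Library totals ran between 24243537 and 34499651 expected counts, so that the members had at least 420 counts in every library, apart from FOSB with 31 to 136. The 13 mitochondrially encoded mRNAs took 4.60 to 4.85% of counts in JNKKO acini with dimerizer and TGF-β1, 7.32 to 7.57% with dimerizer, 9.11 to 9.30% in JNKKO controls, 7.70 to 8.68% in WT acini with dimerizer and TGF-β1, 7.32 to 7.53% with dimerizer and 13.1% at most in WT controls, the highest of the 6. Heat shock genes summed to between 3495 and 4809 counts per 1000000 (CPM). Basal markers were present throughout, with KRT5 between 3124 and 8739 CPM and TP63 between 55.3 and 124 CPM, and of 8 luminal markers KRT8, KRT18, MUC1 and GATA3 were present in every library, at 14.3 CPM or more, ESR1 reached 1.46 CPM at most, and ELF5, PGR and KRT19 were at or near 0. The JNK genes MAPK8, MAPK9 and MAPK10 had mRNA in every JNKKO library, between 25.5 and 34.9 CPM for MAPK8, 42.0 and 53.9 CPM for MAPK9 and 3.64 and 7.51 CPM for MAPK10, against 22.8 to 35.1, 57.1 to 68.4 and 3.89 to 10.5 CPM in WT libraries. The genotype tag of replicate 3 of WT dimerizer with TGF-β1 says knockout, its title says WT, and it was grouped by title. PCSK1N, chosen with these data known because it separated the genotypes, had 17.7 CPM there, against at most 0.0700 CPM in any JNKKO library. In WT dimerizer with TGF-β1, replicate 1 stood apart from the rest, with a chi-square per gene of 9.50 and 12.1 against replicates 2 and 3, which differed from each other by 3.39. JNKKO dimerizer replicate 2 also stood apart, with 6.54 and 6.38 against replicates 1 and 3, which differed from each other by 2.28. It had the least JUN, JUND and FOSB and the most JUNB, FOS and FOSL1 of its group, and without it the rise of FOSB with TGF-β1 in JNKKO lost its call, at 0.36 (edgeR adjusted p = 0.185), and JUND gained one in the genotype difference of the dimerizer effect, at 0.53 (edgeR adjusted p = 0.0465).

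**Figure D1:**
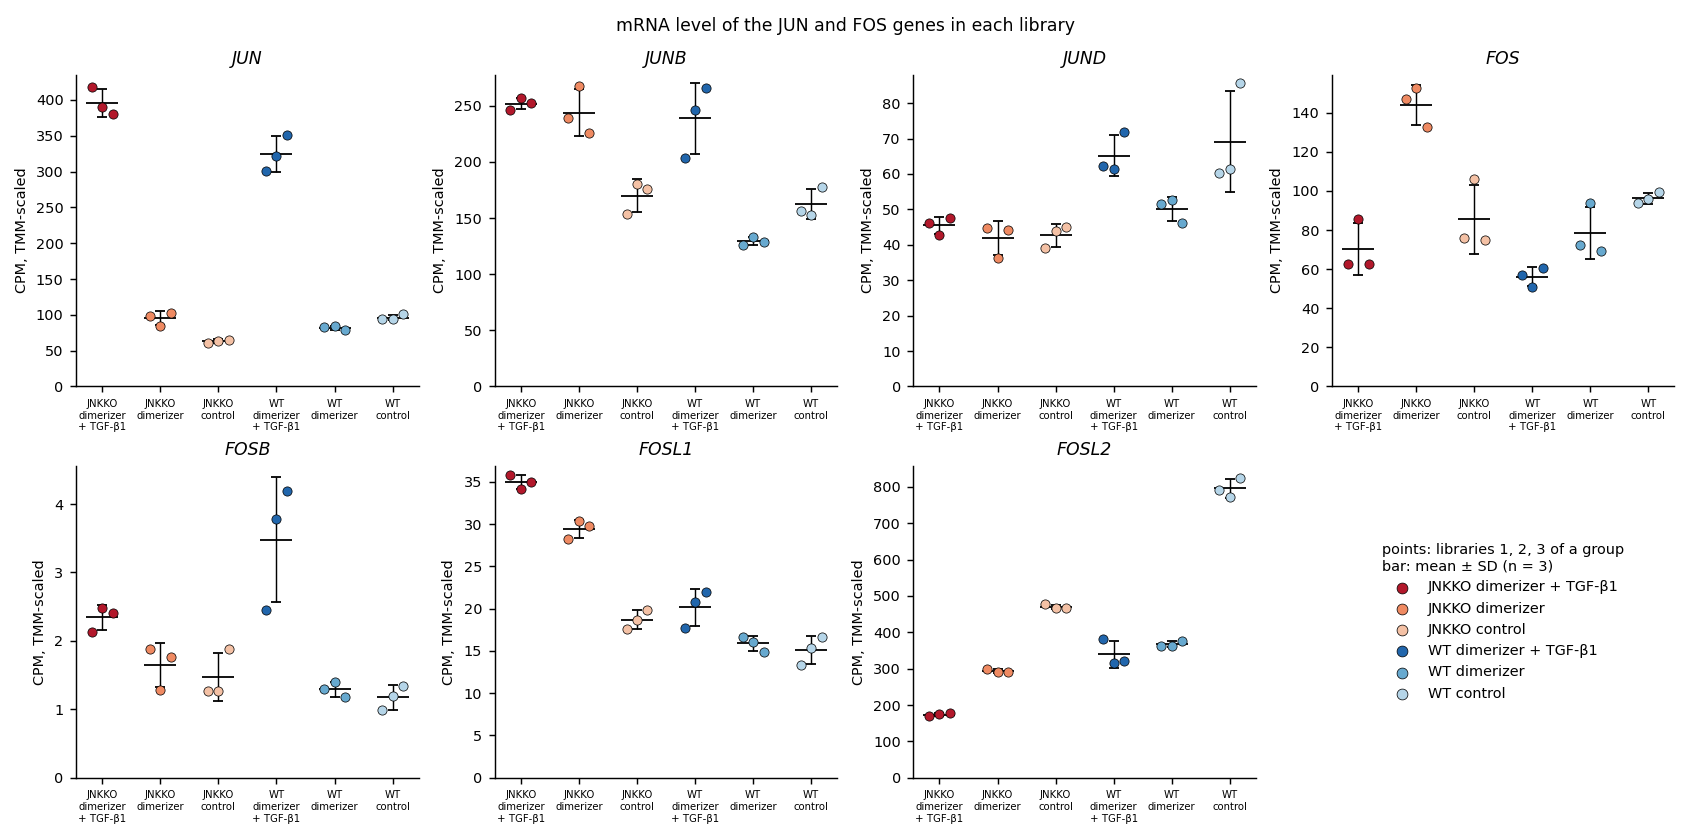
CPM of the 7 members in each of the 18 libraries by group, on axes from 0, with the mean ± SD (n = 3). JUN is high in both groups with TGF-β1, FOS in JNKKO acini with dimerizer, FOSL1 in JNKKO acini with dimerizer with or without TGF-β1, and FOSL2 in WT controls.

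Across the 6 groups the AP-1 genes changed in make-up as well as in amount. In TPM (transcripts per 1000000, which allow for gene length) the 7 genes together reached 577 ± 3.83 TPM in JNKKO acini with dimerizer and TGF-β1, 443 ± 19.3 with dimerizer and 365 ± 21.8 in JNKKO controls (SD, n = 3 each). WT acini had 582 ± 41.6 TPM with dimerizer and TGF-β1, 342 ± 20.01 with dimerizer and 454 ± 27.8 as controls. In TPM, dimerizer went with a higher sum in JNKKO and a lower sum in WT acini, and both TGF-β1 groups lay above the other 4 without overlap. This order depends on the scale. In CPM the sum was 974.7 in JNKKO acini with both agents, 849.9 with dimerizer and 852 in JNKKO controls, and 1048 in WT acini with both agents, 724 with dimerizer and 1236.5 in WT controls, so that JNKKO acini with dimerizer were not above their controls and WT controls were the highest group. The FOS genes made up 23.8 ± 1.58% of the sum in JNKKO acini with dimerizer and TGF-β1, 43.2 ± 0.240% with dimerizer and 48.2 ± 1.99% in JNKKO controls. In WT acini their share was 26.7 ± 2.85%, 46.7 ± 1.31% and 53.0 ± 1.63% under the same 3 treatments. JUN made up 38.9 ± 1.52% of the JUN genes in JNKKO acini with dimerizer and TGF-β1 and 33.97 ± 1.12% in the matching WT acini, and between 12.5 and 17.99% on average in the other 4 groups. In TPM, JUNB was the most abundant JUN gene in every group, with a mean of 228 TPM or less and 109 TPM or more. In CPM, which does not allow for length, JUN exceeded JUNB with both agents. The means were 396 and 252 CPM in JNKKO and 324 and 239 CPM in WT acini.

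**Figure D2:**
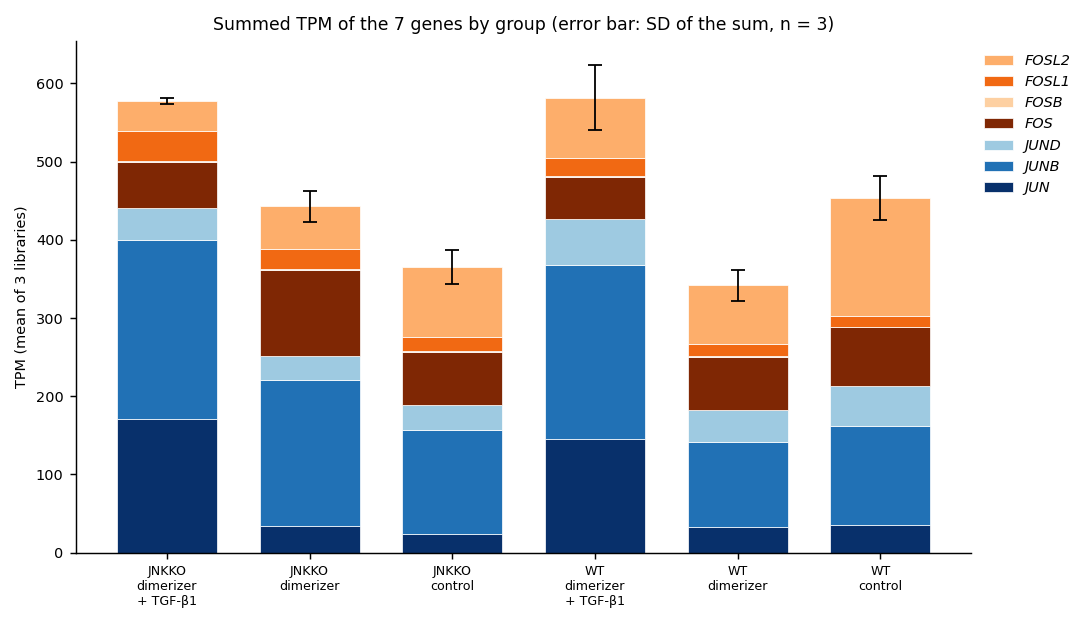
Mean TPM of each member, stacked, in the 6 groups (3 libraries each), with the SD of the summed TPM as error bar. The JUN segment is widest in the 2 groups with TGF-β1, and the FOSL2 segment is widest in WT controls, at 150.5 TPM.

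Within the FOS genes the leading member differed between groups in TPM. FOSL2 held 62.7 ± 1.38% of FOS gene TPM in WT controls, its highest share, and 51.1 ± 4.23% in JNKKO controls. FOS led in JNKKO acini with dimerizer, with 57.6 ± 1.53%, where FOSL2 held 28.5 ± 1.16%. FOS also led in JNKKO acini with dimerizer and TGF-β1, with 43.5 ± 5.19%, where FOSL2 held 28.0 ± 2.32%. FOSL1 held 27.7 ± 3.11% in JNKKO acini with dimerizer and TGF-β1, against 14.6 ± 2.23% in the matching WT acini. FOSB was near 1% or below throughout, with group means between 0.232 and 1.06%. Shares computed from CPM, which do not allow for length, put the FOS genes higher in each of the 6 groups, and FOSL2 then led in all 6, with 61.8 to 87.6% of the FOS genes. In JNKKO acini with dimerizer FOSL2 held 62.7% and FOS 30.7% in CPM.

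The next counts use the quasi-likelihood F test of edgeR over all 16911 genes, with an adjusted p under 0.05 as the call. With dimerizer, 4 members rose in JNKKO acini against JNKKO controls, JUN, JUNB, FOS and FOSL1, where 22.5% of all genes rose, and FOSL2 fell, where 17.9% fell (40.4% of all genes called). In WT acini dimerizer lowered 4 members, JUN, JUNB, JUND and FOSL2, where 25.6% of all genes fell (55.9% called). Adding TGF-β1 to dimerizer raised 3 members in JNKKO acini, JUN, FOSB and FOSL1, where 30.5% of all genes rose, and lowered FOS and FOSL2, where 30.3% fell (60.7% called). In WT acini it raised 5 members, where 33.4% of all genes rose, and lowered FOS and FOSL2, where 31.8% fell (65.2% called). Against their controls, acini with both agents had 4 members higher and 1 lower in JNKKO, beside 33.8% and 33.4% of all genes (67.3% called), and 4 higher and 2 lower in WT, beside 31.3% and 30.5% (61.8% called). The members' share of calls is near that of all genes in WT acini with dimerizer. It is also near in JNKKO acini with TGF-β1 added and with both agents against control, and 7 genes give coarse counts throughout. On the TPM scale, where the median of all genes moved by 0.16 and 0.11 on the log2 scale, TGF-β1 raised 5 and lowered 2 members in JNKKO and raised 5 in WT, with FOS and FOSL2 not called. Without the library of contradicting tag, 4 rose and 1 fell in WT.

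JNKKO controls had 1 member higher than WT controls, FOSL1, where 25.8% of all genes were higher, and 3 lower, JUN, JUND and FOSL2, where 23.5% were lower (49.3% called). Under dimerizer JNKKO acini had more JUN, JUNB, FOS and FOSL1, 4 members where 21.6% of all genes were higher, and less FOSL2, where 18.5% were lower (40.1% called). Under dimerizer and TGF-β1 they had more JUN and FOSL1, where 26.5% of all genes were higher, and less JUND, FOSB and FOSL2, where 26.4% were lower (52.9% called). In TPM, tested with limma, the split was 3 higher and 2 lower under dimerizer and 2 and 2 under both agents, and it was 2 and 2 there without the library of contradicting tag. The effect of dimerizer differed between genotypes for 5 members, JUN, JUNB, FOS, FOSL1 and FOSL2, each with the more positive value in JNKKO, as had 21.4% of all genes (42.6% called in either direction). The effect of TGF-β1 differed for 3 members, JUNB, FOSB and FOSL2, each with the more negative value in JNKKO, as had 18.8% of all genes (32.9% called in either direction), or for 2 of them without the library of contradicting tag. The members' share of calls is near that of all genes between genotypes as controls and in the genotype difference of the TGF-β1 effect. Comparisons that share a group share its libraries and are not independent.

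The libraries of 2 groups did not overlap for 5 members with dimerizer against control in JNKKO acini, where this held for 49.3% of all genes, and for 4 members in WT acini, beside 62.1%. With TGF-β1 added it held for 5 members in JNKKO acini, beside 64.8%, and for 6 in WT acini, beside 69.6%. With both agents against control it held for 5 members in JNKKO, beside 71.2%, and 6 in WT, beside 64.9%. Between JNKKO and WT acini it held for 5 members with both agents, beside 59.4%, for 6 with dimerizer, beside 50.3%, and for 4 as controls, beside 56.4%.

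**Figure D3:**
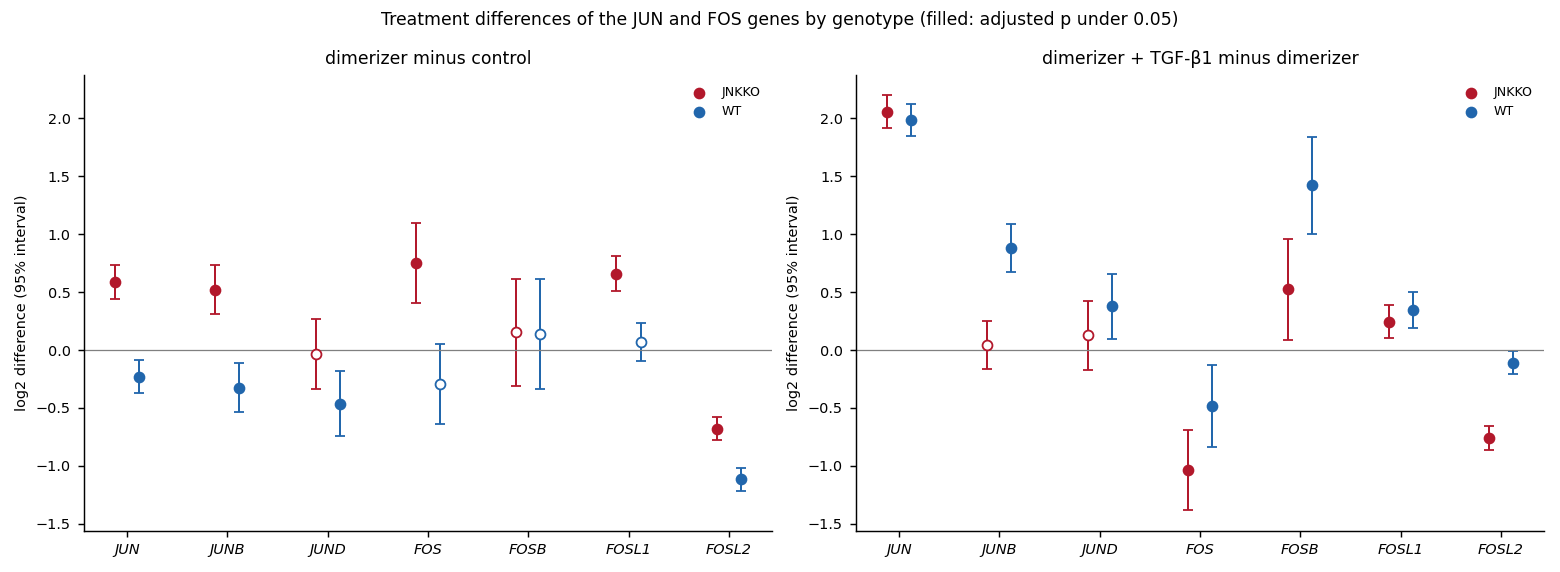
Log2 difference of each member with dimerizer against control and with TGF-β1 added to dimerizer, in JNKKO and WT acini, with 95% intervals (edgeR, 3 libraries a group, filled points called). Dimerizer moved JUN and JUNB up in JNKKO and down in WT, and TGF-β1 moved JUN up by 2.06 in JNKKO and by 1.99 in WT.

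**Figure D4:**
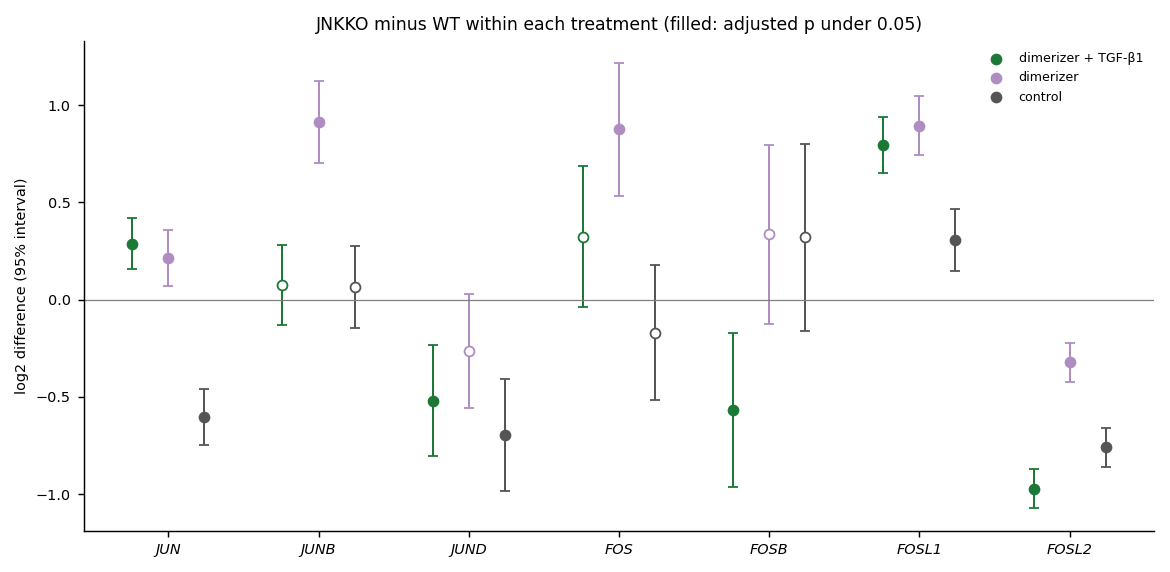
Log2 difference of each member, JNKKO minus WT, under dimerizer with TGF-β1, dimerizer and control, with 95% intervals (edgeR, 3 libraries a group, filled points called). FOSL1 lies above 0 and FOSL2 below 0 in all 3 treatments, whereas JUN is at -0.60 in controls and above 0 under both treatments with dimerizer.

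JUN encodes the founding AP-1 subunit and JNK substrate. It had 418, 390.1 and 381 CPM (scaled with TMM factors, replicates in order) in JNKKO acini with dimerizer and TGF-β1, 98.4, 84.1 and 103 CPM with dimerizer, and 60.6, 64.0 and 65.4 CPM in JNKKO controls. WT acini had 301, 322 and 351 CPM with dimerizer and TGF-β1, 82.5, 84.0 and 79.3 CPM with dimerizer, and 93.5, 94.3 and 101 CPM in controls. The 2 groups with TGF-β1 stood far above the other 4, JNKKO libraries lay above WT libraries there, and JNKKO controls were the lowest of all. In bulk libraries, fewer cells with JUN mRNA and less JUN mRNA per cell cannot be told apart, and this holds for every member.

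TGF-β1 raised JUN 4.17-fold in JNKKO acini, a log2 difference of 2.06 ± 0.07 (SE, n = 3 a group; edgeR adjusted p = 5.74e-15), and 3.96-fold in WT acini, 1.99 ± 0.07 (adjusted p = 7.00e-15). The 2 rises differed by 0.07 on the log2 scale, with a 95% interval of -0.12 to 0.27 (adjusted p = 0.593), and a difference of that size was not detectable here. Dimerizer alone moved JUN in opposite directions. JUN rose by 0.59 ± 0.07 in JNKKO acini (adjusted p = 2.04e-06) and fell by 0.23 ± 0.07 in WT acini (adjusted p = 0.00695), and the difference of 0.82 ± 0.10 passed its own test (adjusted p = 1.96e-06). JNKKO acini had less JUN than WT as controls, by -0.60 ± 0.07 (adjusted p = 9.13e-07), and more with dimerizer, by 0.21 ± 0.07 (adjusted p = 0.0168), and with both agents, by 0.29 ± 0.06 (adjusted p = 0.00077). The fall in WT was -0.12 on the TPM scale (adjusted p = 0.132). The higher level in JNKKO under dimerizer was 0.07 on that scale (adjusted p = 0.385) and missed the threshold without JNKKO dimerizer replicate 1, at 0.19, or 3, at 0.15, and without WT dimerizer replicate 3, at 0.19.

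Fibroblast markers moved with TGF-β1 as JUN did. The 8 of them summed to between 181 and 214 CPM in JNKKO acini with both agents and between 239.7 and 287.5 CPM in WT acini with both agents, against 18.9 to 35.3 CPM in the other 4 groups. FAP and DCN carried the sum. With TGF-β1 added, 3 of the 4 markers tested were called higher in JNKKO and 2 of 4 in WT. Of all genes, 30.5% and 33.4% rose. PDGFRA was at 0 in 11 of 18 libraries and COL3A1 in 15, and neither they nor LUM and THY1 passed the filter. The epithelial line MCF-10A.B2 is the only cell type named for these libraries. How these markers relate to the JUN values was not tested.

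JUNB, which acts with FOS partners and can also restrain JUN, was the JUN gene with the most TPM. It had 247, 257 and 253 CPM in JNKKO acini with dimerizer and TGF-β1, 239, 268 and 226 CPM with dimerizer, and 154, 180.4 and 176 CPM in JNKKO controls. WT acini had 204, 246 and 266 CPM with dimerizer and TGF-β1, 126, 133 and 129 CPM with dimerizer, and 157, 153 and 178 CPM in controls. In CPM, JNKKO acini with dimerizer overlapped the 2 groups with TGF-β1, and WT acini with dimerizer were the lowest. In TPM, JNKKO acini with dimerizer had 171.56 to 205.82 TPM, below the 225.61 to 233.66 TPM of JNKKO acini with both agents. Dimerizer raised JUNB by 0.52 ± 0.10 in JNKKO (adjusted p = 0.000669) and lowered it, by -0.33 ± 0.10, in WT (adjusted p = 0.0116), a difference of 0.85 ± 0.14 between genotypes (adjusted p = 0.000209). Adding TGF-β1 raised it by 0.88 ± 0.10 in WT (adjusted p = 2.05e-06). In JNKKO the difference with TGF-β1 was 0.05, with a 95% interval of -0.16 to 0.25, and the 2 effects differed by -0.84 ± 0.14 (adjusted p = 0.000331).

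Under dimerizer JUNB was 1.88-fold higher in JNKKO than in WT acini, 0.91 ± 0.10 on the log2 scale (adjusted p = 4.84e-06). The genotypes differed by 0.07 as controls, with a 95% interval of -0.14 to 0.28, and by 0.08 with both agents, with an interval of -0.13 to 0.28. The fall in WT acini missed the threshold without WT control replicate 3, at -0.26 (adjusted p = 0.0585), and on the TPM scale, at -0.21 (adjusted p = 0.0512). On the TPM scale the difference with TGF-β1 in JNKKO was 0.30 (adjusted p = 0.00601).

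JUND, the JUN gene least tied to growth signals, had the narrowest range, with a highest group mean 1.65 times the lowest. It had 46.1, 42.9 and 47.6 CPM in JNKKO acini with dimerizer and TGF-β1, 44.9, 36.3 and 44.3 CPM with dimerizer, and 39.1, 43.9 and 45.1 CPM in JNKKO controls. WT acini had 62.3, 61.4 and 71.8 CPM with dimerizer and TGF-β1, 51.4, 52.7 and 46.3 CPM with dimerizer, and 60.3, 61.4 and 85.6 CPM in controls. In CPM the 3 JNKKO groups overlapped each other, every WT library lay above the JNKKO libraries of its treatment, and WT control replicate 3 stood high. In TPM, JNKKO acini with both agents, at 36.75 to 42.9 TPM, lay above those with dimerizer and JNKKO controls, at 34.33 TPM or less. JUND was lower in JNKKO than in WT controls, by -0.69 ± 0.13 (adjusted p = 0.000694), and with both agents, by -0.52 ± 0.13 (adjusted p = 0.00478). With dimerizer the difference was -0.26, with a 95% interval of -0.56 to 0.03 (adjusted p = 0.144), or -0.39 on the TPM scale (adjusted p = 0.0101).

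In WT acini dimerizer lowered JUND, by -0.46 ± 0.13 (adjusted p = 0.00802), and TGF-β1 raised it again, by 0.38 ± 0.13 (adjusted p = 0.0198). The WT fall was -0.28 without WT control replicate 3 (adjusted p = 0.0185) and -0.49 with only those 2 groups in the fit (adjusted p = 0.0712). The WT rise missed the threshold without WT dimerizer with TGF-β1 replicate 3, at 0.30 (adjusted p = 0.0933), or without WT dimerizer replicate 3, at 0.32 (adjusted p = 0.0752). In JNKKO acini the differences were -0.03 with dimerizer, with an interval of -0.33 to 0.27, and 0.13 with TGF-β1 added, with an interval of -0.17 to 0.42. On the TPM scale the difference with TGF-β1 in JNKKO was 0.37 (adjusted p = 0.00879).

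FOS encodes the partner that growth factor signals induce fastest. It had 62.8, 85.6 and 62.6 CPM in JNKKO acini with dimerizer and TGF-β1, 147, 152 and 133 CPM with dimerizer, and 75.9, 106 and 74.7 CPM in JNKKO controls. WT acini had 56.8, 51.1 and 60.6 CPM with dimerizer and TGF-β1, 72.1, 94.0 and 69.4 CPM with dimerizer, and 93.8, 95.8 and 99.4 CPM in controls. In CPM, JNKKO acini with dimerizer stood above all other groups without overlap, and WT acini with both agents stood below all others. In TPM, WT acini with both agents had 46.64 to 58.15 TPM. They overlapped JNKKO acini with both agents there, at 53.47 to 72.61 TPM. Dimerizer raised FOS 1.68-fold in JNKKO, 0.75 ± 0.16 on the log2 scale (adjusted p = 0.00194). In WT the difference was -0.30, with a 95% interval of -0.64 to 0.05 (adjusted p = 0.136), and the effects in the 2 genotypes differed by 1.05 ± 0.22 (adjusted p = 0.00205). The WT difference was -0.44 without WT dimerizer replicate 2 (adjusted p = 0.0399).

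TGF-β1, which raised JUN, lowered FOS, by -1.03 ± 0.16 in JNKKO (adjusted p = 8.16e-05) and by -0.48 ± 0.16 in WT acini (adjusted p = 0.0199). The 2 falls differed by -0.55 ± 0.23, short of the threshold (adjusted p = 0.0854). That difference was -0.72 without JNKKO dimerizer with TGF-β1 replicate 2 (adjusted p = 0.0273) and -0.70 without WT dimerizer replicate 2 (adjusted p = 0.0331). The fall in WT missed the threshold without WT dimerizer with TGF-β1 replicate 2, at -0.43, without WT dimerizer replicate 2, at -0.33, and on the TPM scale, at -0.35 (adjusted p = 0.0561). Against control, acini with both agents differed by -0.28 in JNKKO, with an interval of -0.64 to 0.07, and FOS fell by 0.78 ± 0.16 in WT (adjusted p = 0.000996), or by 0.48 on the TPM scale. The JNKKO difference was -0.45 without JNKKO dimerizer with TGF-β1 replicate 2 (adjusted p = 0.0318). Under dimerizer FOS was 1.83-fold higher in JNKKO than in WT acini, 0.88 ± 0.16 (adjusted p = 0.000587). The genotypes differed by -0.17 as controls, with an interval of -0.52 to 0.18, and by 0.32 with both agents, with an interval of -0.04 to 0.69.

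In 4 of the 6 groups, all but WT acini with both agents and WT controls, replicate 2 had the most FOS and the most EGR1, an immediate-early gene of the same ERK and serum response pathway that was looked at after the FOS values were seen. EGR1 had 147, 229.7 and 143 CPM in JNKKO acini with dimerizer and TGF-β1 and 149, 173 and 149 CPM in JNKKO controls. It had 99.6, 112 and 100.5 CPM in WT acini with dimerizer. In JNKKO acini with dimerizer EGR1 had 232, 282 and 199.6 CPM, in WT acini with both agents it had 108, 110.2 and 139.5 CPM, and in WT controls 49.1, 59.2 and 57.3 CPM. Not every immediate-early gene followed FOS. In JNKKO acini with dimerizer, replicate 2 also had the most JUNB, EGR2, EGR3, DUSP1, IER2 and ZFP36. It had the least JUN, FOSB and NR4A1 there, at -0.17, -0.33 and -0.34 from the group mean on the log2 scale. EGR2, EGR3 and NR4A1 were low, at 2.155 CPM or less in every library. What set replicate 2 apart was not tested. EGR1 was higher in JNKKO than in WT acini in each of the 3 treatments, by 0.54 ± 0.18 with both agents (adjusted p = 0.0250), 1.19 ± 0.18 with dimerizer (adjusted p = 0.000174) and 1.51 ± 0.19 as controls (adjusted p = 2.61e-05), whereas FOS was called under dimerizer.

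**Figure D5:**
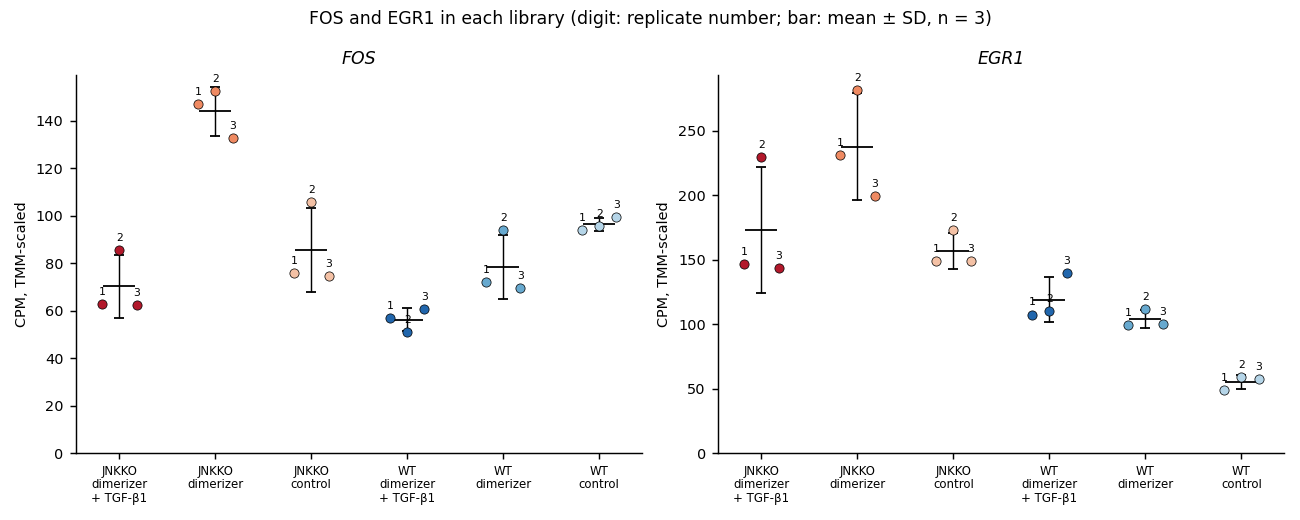
CPM of FOS and EGR1 in each library by group, with the replicate number at each point and the mean ± SD (n = 3). FOS was highest in JNKKO acini with dimerizer at 133 to 152 CPM, and EGR1 was lowest in WT controls at 49.1 to 59.2 CPM.

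FOSB, a close relative of FOS, was the least abundant member. It had 2.14, 2.48 and 2.41 CPM in JNKKO acini with dimerizer and TGF-β1, 1.88, 1.28 and 1.77 CPM with dimerizer, and 1.27, 1.27 and 1.88 CPM in JNKKO controls. WT acini had 2.45, 3.78 and 4.20 CPM with dimerizer and TGF-β1, 1.29, 1.40 and 1.18 CPM with dimerizer, and 0.984, 1.19 and 1.34 CPM in controls. The 2 groups with TGF-β1 were highest and overlapped each other, and the other 4 overlapped. TGF-β1 raised FOSB by 1.42 ± 0.20 in WT acini (adjusted p = 5.09e-07), or by 0.71 on the log2(TPM + 1) scale, and by 0.52 ± 0.21 in JNKKO acini (adjusted p = 0.0347). The JNKKO rise missed the threshold in DESeq2, at 0.53 (adjusted p = 0.0798), and without JNKKO dimerizer with TGF-β1 replicate 2, at 0.48, or 3, at 0.50, or without JNKKO dimerizer replicate 2, at 0.36.

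The effects of TGF-β1 on FOSB differed between genotypes by -0.90 ± 0.30 (adjusted p = 0.0195), and with both agents JNKKO acini had less FOSB than WT, by -0.57 ± 0.19 (adjusted p = 0.0151). Both calls were lost on the TPM scale, at -0.27 (adjusted p = 0.295) and -0.28 (adjusted p = 0.0920). The first was also lost without either of JNKKO dimerizer replicates 1 and 3, at -0.80 and -0.83, WT dimerizer with TGF-β1 replicates 2 and 3, at -0.82 and -0.72, or WT dimerizer replicate 3, at -0.84. The second was lost in DESeq2, at -0.55 (adjusted p = 0.0559), and without JNKKO dimerizer with TGF-β1 replicate 1, at -0.50, or WT dimerizer with TGF-β1 replicates 2 or 3, at -0.48 and -0.39. Against control, both agents raised FOSB by 0.68 ± 0.22 in JNKKO (adjusted p = 0.00717) and by 1.56 ± 0.21 in WT acini (adjusted p = 1.86e-07), or by 0.44 and 0.76 on the log2(TPM + 1) scale. With dimerizer against control the differences were 0.15 in JNKKO, with an interval of -0.31 to 0.62, and 0.14 in WT, with an interval of -0.34 to 0.62. The FOSB counts, 31 to 136 a library, and the overlap with ERCC1 limit these values.

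FOSL1 encodes FRA-1, a FOS protein that ERK signalling stabilises and that is linked to invasive growth of mammary cells. It had 35.8, 34.1 and 34.9 CPM in JNKKO acini with dimerizer and TGF-β1, 28.2, 30.3 and 29.7 CPM with dimerizer, and 17.6, 18.7 and 19.8 CPM in JNKKO controls. WT acini had 17.7, 20.8 and 21.9 CPM with dimerizer and TGF-β1, 16.6, 16.1 and 14.9 CPM with dimerizer, and 13.3, 15.4 and 16.6 CPM in controls. JNKKO acini with dimerizer, with or without TGF-β1, stood above every WT library, and in CPM the JNKKO controls overlapped the WT acini with both agents. In TPM the JNKKO controls, at 16.84 to 18.44 TPM, lay below the WT acini with both agents, at 19.81 to 23.95 TPM. FOSL1 was the one member higher in JNKKO than in WT acini under all 3 treatments. The differences were 0.80 ± 0.07 with both agents (adjusted p = 1.84e-10), 0.89 ± 0.07 with dimerizer (adjusted p = 9.17e-11) and 0.31 ± 0.08 as controls (adjusted p = 0.00184).

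Dimerizer raised FOSL1 1.58-fold in JNKKO acini, 0.66 ± 0.07 on the log2 scale (adjusted p = 2.95e-08). In WT acini the difference was 0.07, with a 95% interval of -0.09 to 0.23, and the 2 effects differed by 0.59 ± 0.11 (adjusted p = 6.08e-05). TGF-β1 raised it by 0.24 ± 0.07 in JNKKO (adjusted p = 0.00322), or 0.53 on the TPM scale (adjusted p = 1.44e-05), and by 0.34 ± 0.08 in WT (adjusted p = 0.00024). Those effects differed by -0.10, with an interval of -0.31 to 0.11. The summed immune markers were higher in JNKKO acini with dimerizer than in JNKKO controls, and CD68 made up most of the sum. The 6 genes summed to between 41.6 and 46.5 CPM with both agents and 45.2 and 50.1 CPM with dimerizer, against 10.03 to 11.7 CPM in JNKKO controls and 11.9 to 18.6 CPM in WT libraries. CD68 alone had 45.7 CPM on average in JNKKO acini with dimerizer, against 6.63 CPM in JNKKO controls, while PTPRC reached 1.07 CPM at most and CD3E and LYZ were each at 0 in 13 of 18 libraries. With dimerizer in JNKKO acini the median log2 difference of the 4 immune markers tested was -0.92, beside 0.01 over all genes. No cell type but the epithelial line MCF-10A.B2 is named for these libraries. How these markers relate to the FOSL1 values was not tested.

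FOSL2 encodes FRA-2, the closest relative of FRA-1, and was lowest where FOSL1 was highest. It had 169, 174 and 177 CPM in JNKKO acini with dimerizer and TGF-β1, 299.6, 289.6 and 292 CPM with dimerizer, and 477, 467 and 467 CPM in JNKKO controls. WT acini had 383, 317 and 321 CPM with dimerizer and TGF-β1, 361, 363 and 376 CPM with dimerizer, and 790.2, 773 and 825 CPM in controls. Each of the 3 JNKKO groups was clear of the next, WT controls stood above all others, and the 2 treated WT groups overlapped. Dimerizer lowered FOSL2, by -0.68 ± 0.05 in JNKKO (adjusted p = 5.63e-11) and by -1.12 ± 0.05 in WT acini (adjusted p = 1.83e-15), and the 2 falls differed by 0.44 ± 0.07 (adjusted p = 1.30e-05). TGF-β1 lowered it further in JNKKO, by -0.76 ± 0.05 (adjusted p = 1.85e-12), or -0.50 on the TPM scale.

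In WT acini the change with TGF-β1 was -0.11 ± 0.05, at the threshold (adjusted p = 0.0498). It turned to 0.04 on the TPM scale (adjusted p = 0.501), was -0.12 with only those 2 groups in the fit (adjusted p = 0.176) and was -0.20 without WT dimerizer with TGF-β1 replicate 1. It missed the threshold without any of the other 5 libraries, at values between -0.12 and -0.07. The effects of TGF-β1 in the 2 genotypes differed by -0.65 ± 0.07 (adjusted p = 1.01e-07). FOSL2 was lower in JNKKO than in WT acini under all 3 treatments, by -0.97 ± 0.05 with both agents (adjusted p = 5.08e-14), -0.32 ± 0.05 with dimerizer (adjusted p = 9.06e-06) and -0.76 ± 0.05 as controls (adjusted p = 3.36e-12). The mitochondrial share was likewise highest in WT controls and lowest in JNKKO acini with both agents, and leaving mitochondrial genes out of counts and totals changed no call of any member. The 5 endothelial markers had the same order of groups as FOSL2 in their median sum, with 14.8 CPM in JNKKO acini with both agents, 19.3 CPM with dimerizer and 37.9 CPM in JNKKO controls, and 26.2, 27.6 and 43.9 CPM in WT acini under the same 3 treatments. KDR and PECAM1, the 2 that passed the filter, carried the sum, both fell with dimerizer in JNKKO acini, and in WT acini KDR fell and PECAM1 rose. CDH5 was at 0 in 16 of 18 libraries, VWF reached 0.336 CPM at most and CLDN5 0.129 CPM. Again, MCF-10A.B2 is the only cell type named for these libraries. How these markers relate to the FOSL2 values was not tested.

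Other immediate-early genes, 25 of 27 tested, moved as follows. Dimerizer raised 11 and lowered 6 in JNKKO acini, where 40.4% of all genes were called. The median log2 difference was 0.31 beside 0.01 over all genes. In WT acini dimerizer raised 10 and lowered 10, where 55.9% of all genes were called, with a median of 0.17 beside 0.03. In JNKKO acini the leading rises were MCL1, a survival protein, at 1492 CPM with dimerizer and 709 CPM in controls, IER2 at 133 and 79.5 CPM, KLF10 at 86.8 and 57.9 CPM, and ZFP36, which marks mRNAs for decay, at 111 and 76.6 CPM. In WT acini CYR61, a matrix protein gene, had 10.3 CPM with dimerizer and 48.3 CPM in controls, and GADD45B 5.59 and 27.3 CPM, both lower, while MYC had 385 and 223 CPM and was higher. TGF-β1 raised 13 and lowered 5 in JNKKO and raised 18 and lowered 3 in WT acini, with medians of 0.13 and 0.56 beside -0.01 and 0.00 over all genes. Of all genes, 60.7% and 65.2% were called. In TPM the splits were 19 and 2 in JNKKO and 20 and 2 in WT. KLF10 rose in both, to 148 CPM in JNKKO acini with TGF-β1 against 86.8 CPM without it, and to 113.5 CPM in WT acini with TGF-β1 against 57.7 CPM without it. MYC fell in both, by 0.98 ± 0.04 in JNKKO and 0.92 ± 0.04 in WT (adjusted p = 2.51e-18 and 5.82e-18).

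JNKKO acini had 17 of these 25 genes higher and 3 lower than WT acini under dimerizer, with a median of 0.42 beside 0.00 over all genes. As controls 13 were higher and 7 lower, and with both agents 9 were higher and 9 lower. Of all genes, 40.1% were called under dimerizer, 49.3% as controls and 52.9% with both agents. MCL1 stood at 1492 CPM in JNKKO and 739 CPM in WT acini with dimerizer, and ZFP36 at 111 and 60.9 CPM. The effect of TGF-β1 was the more negative in JNKKO for 14 of the 25 and the more positive for 1. The median was -0.45 beside -0.02 over all genes, of which 18.8% were called more negative and 14.1% more positive. KLF4, CSRNP1 and PPP1R15A led, at -0.89 ± 0.09, -0.85 ± 0.09 and -0.72 ± 0.09.

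Textbook AP-1 target genes, 29 of 30 tested, include proteases and surface receptors of invading cells. Dimerizer raised 15 and lowered 4 of them in JNKKO acini, where 40.4% of all genes were called, with a median of 0.51 beside 0.01. In WT acini dimerizer raised 12 and lowered 8, where 55.9% of all genes were called, with a median of 0.21 beside 0.03. PLAU, the urokinase activator, had 139.6 CPM in JNKKO acini with dimerizer and 34.6 CPM in JNKKO controls, and its receptor PLAUR had 24.1 and 10.04 CPM. In WT acini CD44, a hyaluronan receptor, had 555 CPM with dimerizer and 332 CPM in controls, whereas KRT16 had 217 and 551 CPM and FSTL3, a binding protein of activin, 142 and 306 CPM. TGF-β1 raised 18 and lowered 6 in JNKKO and raised 17 and lowered 7 in WT acini, with medians of 0.96 and 0.92 beside -0.01 and 0.00. Of all genes, 60.7% and 65.2% were called.

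The receptor tyrosine kinase gene AXL rose with TGF-β1 in both genotypes, to 130.4 CPM in JNKKO acini with TGF-β1 against 66.9 CPM without it, and to 93.0 CPM in WT acini with TGF-β1 against 49.2 CPM without it. The protease gene MMP10 had 8.12 CPM with TGF-β1 and 0.242 CPM without it in JNKKO acini, and 14.1 and 0.0885 CPM in WT acini. JNKKO acini had 16 targets higher and 6 lower than WT with both agents, 17 higher and 2 lower with dimerizer, and 11 higher and 6 lower as controls. The share of all genes called was 52.9%, 40.1% and 49.3% in the same order. PLAU had 630.4 CPM in JNKKO and 167 CPM in WT acini with both agents, and PLAUR 48.9 and 23.5 CPM. The list was drawn from general knowledge of AP-1, its genes also answer to TGF-β and other signals, and DCN is in the fibroblast list too.

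The other bZIP genes whose proteins can pair with AP-1 subunits, 24 of 26 tested, moved in both directions. Dimerizer raised 8 and lowered 5 in JNKKO acini, where 40.4% of all genes were called, and raised 8 and lowered 9 in WT acini, where 55.9% were called, with medians of -0.02 and -0.07 beside 0.01 and 0.03 over all genes. TGF-β1 raised 8 and lowered 9 in JNKKO acini, where 60.7% of all genes were called, and raised 10 and lowered 7 in WT acini, where 65.2% were called, with medians of 0.02 and 0.05 beside -0.01 and 0.00. In TPM the TGF-β1 splits were 12 and 5 in JNKKO and 11 and 3 in WT. MAF, a large MAF factor, rose with TGF-β1 by 2.54 ± 0.08 in JNKKO (adjusted p = 3.20e-21) and by 1.91 ± 0.07 in WT acini (adjusted p = 5.58e-20). MAFF, a small MAF factor, stood at 46.9 CPM with dimerizer and 37.9 CPM in controls of JNKKO and at 28.7 and 57.3 CPM in WT acini, and its dimerizer effects differed by 1.31 ± 0.09 between genotypes (adjusted p = 2.80e-12). ATF4, the stress response factor, rose with dimerizer by 0.51 ± 0.04 in JNKKO and 0.57 ± 0.04 in WT acini (adjusted p = 3.48e-12 and 1.36e-13). ATF3 had 0.862 CPM in JNKKO and 3.55 CPM in WT acini with both agents.

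Regulators of AP-1 transcription and turnover, 25 of 26 tested, had 9 members up and 6 down with dimerizer in JNKKO acini, beside 40.4% of all genes called, and 12 up and 7 down in WT acini, beside 55.9%, with medians of 0.05 and 0.09 beside 0.01 and 0.03 over all genes. With TGF-β1, 8 were up and 9 down in JNKKO acini, beside 60.7% of all genes called, and 11 up and 9 down in WT acini, beside 65.2%, with medians of -0.03 and 0.06 beside -0.01 and 0.00. On the TPM scale the TGF-β1 splits were 12 and 6 in JNKKO and 13 and 5 in WT. ELK3, an ETS factor that acts with serum response factor, rose with TGF-β1 in both genotypes, to 203 CPM in JNKKO acini with TGF-β1 against 93.0 CPM without it, and to 156 CPM in WT acini with TGF-β1 against 55.7 CPM without it. MKL1, a coactivator of serum response factor, had 59.1 CPM in JNKKO and 91.4 CPM in WT acini with both agents. MEF2D, a factor that binds the JUN promoter, had 149 CPM in JNKKO and 120.1 CPM in WT acini with dimerizer, and its dimerizer effects differed by 0.67 ± 0.05 between genotypes (adjusted p = 4.95e-11).

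Genes most like each member were taken by Pearson r of log2 CPM over the 6 group means, among 10998 genes with a mean of at least 5 CPM. With 6 points that share libraries and treatments, such an r is a description. The 2 nearest were EML1 and B4GALT4 for JUN (both 0.998), CAPN15 and CH507-9B2.5 for JUNB (0.985 and 0.984), PRKAB2 and HCCS for JUND (0.996 and 0.992), ERP29 and C6orf48 for FOS (0.989 and 0.987), RNF44 and TULP4 for FOSB (0.996 and 0.992), MZT2A and ADPRHL2 for FOSL1 (0.998 and 0.992), and ZBED3 and HPGD for FOSL2 (both 0.999). The FOSL2 neighbours spanned a wide range. HPGD, a prostaglandin-degrading enzyme, had 2.32 CPM in JNKKO acini with both agents and 6.05 CPM with dimerizer, against 14.7 CPM in JNKKO controls, and 8.81, 8.93 and 35.7 CPM in WT acini with both agents, with dimerizer and as controls. Between members, r over the 6 group means ran from 0.86 for JUN and FOSB to -0.86 for FOSL1 and FOSL2.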

How the data were processed

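Acini of 6 groups, 3 libraries each, were sequenced from both ends after poly(A) selection and ribosomal RNA depletion, per the labels' protocols. Cutadapt, RSEM and hg38 are named, without their settings, per the submitters' processing notes, while aligner, annotation and use of strand were not given in the sources used here. The authors deposited expected counts per gene, a median of 9.35% of them not whole, and TPM that sum to 1000000, both per the file headers. Of the gene names, 127 stood in an altered form and were put back.

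The expected counts, made whole by rounding, went into edgeR 4.0.16 (robust quasi-likelihood F test, R 4.3.3), with 1 mean per group, all 18 libraries, TMM factors (0.962 to 1.04) and the default filter, which kept 16911 genes. P-values were adjusted by Benjamini-Hochberg over all of them, with a threshold of 0.05. A standard error is the size of the log2 difference over the root of its F value. The common biological coefficient of variation was 4.47%. The fit was also run on simulated counts in which every gene had this coefficient of variation. CPM are TMM-scaled. TPM were tested with limma 3.58.1 on log2(TPM + 1), on which scale a fold change of low genes is understated.

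The members and gene lists were chosen with earlier results of these data known. The text names the 7 members, up to 4 called genes of each list with the smallest adjusted p, the 2 genes most like each member, MAPK8, MAPK9, MAPK10 and PCSK1N. Added after their values were seen were EGR1, the immediate-early genes set beside it and single markers. A gene of the target list that this rule selects is not reported here. Alternatives were DESeq2 1.42.0, its size factors, no filter, no mitochondrial genes, TPM with a pseudocount of 1 or 0.1, fewer groups in the fit, the replicate number as a block and each library left out. The motifs TGACG and TGACATCA were added after the promoters were read. Python 3.11.15 (pandas 2.3.3, numpy 2.4.6, scipy 1.17.1, matplotlib 3.10.9) made the tables and figures.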

Additional observations from a re-analysis of the deposited data

Results flagged for a closer look

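Members are given here whose response differed between JNKKO and WT acini by a test of the difference itself (the interaction term in edgeR, adjusted over 16911 genes). For dimerizer against control, the JNKKO effect minus the WT effect on the log2 scale was 0.82 for JUN, 0.85 for JUNB, 1.05 for FOS, 0.59 for FOSL1 and 0.44 for FOSL2. JUN and JUNB rose in JNKKO and fell in WT acini, FOS and FOSL1 rose in JNKKO acini, and FOSL2 fell less in JNKKO than in WT acini. On log2(TPM + 1) the WT falls of JUN and JUNB were not called, at -0.12 and -0.21 (limma adjusted p = 0.132 and 0.0512). For TGF-β1 added to dimerizer, the JNKKO effect minus the WT effect was -0.84 for JUNB, -0.90 for FOSB and -0.65 for FOSL2. JUNB and FOSB had the larger value in WT acini. FOSL2 fell in JNKKO acini, while its WT change of -0.11 turned to 0.04 on the TPM scale. The FOSB difference lost its call in 8 alternatives. Among them were the TPM scale, at -0.27 (limma adjusted p = 0.295), and the fit without the library of contradicting tag, at -0.72 (edgeR adjusted p = 0.0792). The dimerizer groups enter both differences, so the values of a gene in the 2 are not independent.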

How the results depend on the processing

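Of 77 member differences, 54 were called, 44 of them in every alternative, 10 lost the call or turned somewhere, and 23 were not called. DESeq2's size factors and leaving out mitochondrial genes changed no call of the 77. With no filter on low counts 8 more were called, the cause of which was not tested, and 5 members in place of 3 differed between genotypes in the TGF-β1 effect. On the TPM scale, with a pseudocount of 1 and with or without the filter, 2 members in place of 4 were called in WT acini with dimerizer against control. Small differences that were not called, apart from FOSL2, turned sign on log2(TPM + 1), where the all-gene median moves by up to 0.17: FOSB to -0.0027 with dimerizer in JNKKO, -0.0056 between genotypes under dimerizer and -0.0562 in the genotype difference of the dimerizer effect, JUND to 0.1973 with both agents in WT, FOSL1 to 0.0306 in the genotype difference of the TGF-β1 effect, and FOSL2 to 0.0428 with TGF-β1 in WT. With a pseudocount of 0.1 the last 5 were -0.0207, -0.1352, 0.2008, 0.022 and 0.0433. Leaving out 1 library gave ranges that cross 0 for JUND with dimerizer in JNKKO (-0.0926 to 0.0646) and with both agents in WT (-0.1835 to 0.1), FOSL1 with dimerizer in WT (-0.012 to 0.1435), JUNB with TGF-β1 in JNKKO (-0.0077 to 0.1182) and between genotypes with both agents (-0.0241 to 0.1827), and the genotype differences of FOSB to dimerizer (-0.0914 to 0.2194) and JUN to TGF-β1 (-0.0098 to 0.155). In CPM in place of TPM the FOS genes were 28.8, 55.2 and 67.6% of the members in JNKKO acini with both agents, dimerizer and control, and 40.1, 63.9 and 73.5% in WT acini, and JUN was 57.1, 25.01 and 23.0% of the JUN genes in JNKKO and 51.7, 31.3 and 29.5% in WT acini. Of the 14 genes named as most alike, 3 were also nearest over the 18 libraries. Over all genes kept, replicate numbers showed no pairing of libraries (45 pairs of the same number, 0 with r over 0.1, r between -0.0624 and 0.0768). An r over all genes cannot show pairing limited to few genes. A replicate block changed 1 call, FOS in the genotype difference of the TGF-β1 effect (-0.58, edgeR adjusted p = 0.0408). Depth limits FOSB most.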
